A study of Rattus norvegicus with 23 samples.

Results

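Runx2, Sp7, Dlx3, Dlx5, Msx2, Atf4 and Twist1 encode transcription factors that control whether a skeletal precursor cell becomes a bone-forming osteoblast and how far it matures. These 7 genes were chosen by name from the 30562 genes of the deposited table, and all 7 were among the 15271 genes with enough counts to be tested. They were followed through 23 bulk RNA libraries from femora of female Wistar rats. In MetOP, the study's model of metabolic osteoporosis, rats were given a high-fat diet together with L-NAME, which blocks nitric oxide synthesis. The question put by the study's title is how semaglutide, a long-acting agonist of the GLP-1 receptor, and PYY3-36, a gut peptide that curbs appetite, act on bone that is already osteoporotic. MetOP rats given saline, semaglutide or semaglutide with PYY are represented by 5 libraries each, and MetOP rats given PYY with saline by 4 libraries. The remaining 4 libraries were healthy controls, whose titles name a standard diet, saline and no L-NAME. The titles of all MetOP libraries also carry the letters lfd, which the labels do not explain, and the treatment labels of the 4 PYY libraries run from PYY3-36 to PYY3-39, so these were grouped by their shared title. The labels do not give the age of the animals or say that each library is a separate animal, so the spread that p-values measure is that between libraries, which may be technical. Libraries are called by their names in the labels.

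Runx2 is the factor without which no osteoblasts form, and Sp7 (osterix) acts after it in the same lineage. Dlx5 and Dlx3 are homeodomain proteins that favour osteoblast gene expression, whereas Msx2, another homeodomain protein, is best known for keeping precursors dividing and for opposing Dlx proteins at shared sites. Twist1, a basic helix-loop-helix protein, holds back Runx2 in precursors, and Atf4, a basic leucine zipper protein of the amino acid and stress response, supports protein synthesis in mature osteoblasts and is made in nearly every cell type. Runx2 and Sp7 are also made by hypertrophic chondrocytes, the cartilage cells of the growth plate that border on new bone.

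In the deposited annotation (mRatBN7.2), Runx2 (ENSRNOG00000020193) lies on chr9:16167482-16492167 on the plus strand, Sp7 (ENSRNOG00000014082) on chr7:133484609-133494847 on the minus strand and Dlx5 (ENSRNOG00000010905) on chr4:34999139-35003407 on the minus strand. Dlx3 (ENSRNOG00000004278) lies on chr10:80064489-80069872, Msx2 (ENSRNOG00000018355) on chr17:11097103-11102879, Twist1 (ENSRNOG00000011101) on chr6:50674678-50677653 and Atf4 (ENSRNOG00000017801) on chr7:111804183-111806446, each on the plus strand. All 7 are annotated as protein coding, and the values below are counts over whole genes, so different starts of a gene are not told apart.

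RefSeq promoter windows (build GRCr8) were matched for 4 of the 7 genes. The 250 bases before the start are shown for both starts of Runx2, for Twist1, whose level followed that of Runx2 across libraries, and for Msx2 and Atf4, whose levels did not. Capitals mark the Runx core motif, TGTGGT, searched on both strands and read as ACCACA on the minus strand. The windows are, in order, chr9:23664808-23665057, chr9:23742990-23743239, chr6:56402059-56402308, chr17:11102034-11102283 and chr7:113684431-113684680, all on the plus strand.
Runx2, first start: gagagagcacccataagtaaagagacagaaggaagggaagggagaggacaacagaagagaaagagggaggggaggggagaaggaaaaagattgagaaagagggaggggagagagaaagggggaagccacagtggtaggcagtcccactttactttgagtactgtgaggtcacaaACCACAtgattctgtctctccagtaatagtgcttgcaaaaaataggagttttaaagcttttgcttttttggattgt
Runx2, second start: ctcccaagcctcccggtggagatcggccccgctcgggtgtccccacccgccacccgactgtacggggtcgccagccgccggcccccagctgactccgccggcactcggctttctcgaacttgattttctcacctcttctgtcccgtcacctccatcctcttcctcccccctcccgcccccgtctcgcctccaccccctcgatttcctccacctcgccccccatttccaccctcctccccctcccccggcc
Twist1: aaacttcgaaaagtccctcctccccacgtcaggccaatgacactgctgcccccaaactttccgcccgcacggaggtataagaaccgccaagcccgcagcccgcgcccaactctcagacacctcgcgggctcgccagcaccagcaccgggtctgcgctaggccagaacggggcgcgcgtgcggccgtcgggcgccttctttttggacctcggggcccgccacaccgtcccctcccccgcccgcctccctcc
Msx2: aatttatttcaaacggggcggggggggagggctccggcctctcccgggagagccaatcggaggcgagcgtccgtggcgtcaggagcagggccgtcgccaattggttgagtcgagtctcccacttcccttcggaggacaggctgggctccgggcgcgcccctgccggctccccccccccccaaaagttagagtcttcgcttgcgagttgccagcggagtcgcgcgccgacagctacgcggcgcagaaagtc
Atf4: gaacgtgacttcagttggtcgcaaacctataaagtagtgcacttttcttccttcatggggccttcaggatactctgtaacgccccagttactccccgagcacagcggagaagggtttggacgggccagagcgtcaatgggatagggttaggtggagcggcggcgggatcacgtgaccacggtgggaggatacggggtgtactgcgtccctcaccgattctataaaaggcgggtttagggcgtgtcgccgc
The Runx core was found in 1 of these 5 windows, the first Runx2 start, where it begins 76 bases before the start. It was present in 14.5% of all 33469 windows of this length. The E-box, CANNTG, which basic helix-loop-helix proteins such as Twist1 bind, was present in both Runx2 windows and in the Msx2 and Atf4 windows but not in that of Twist1, and 65.5% of all windows held it. The GC box, GGGCGG, was found in the second Runx2 window and in the Msx2 and Twist1 windows (30.5% of all windows). The homeodomain core TAATTA (4.86% of all windows) and the cAMP response element TGACGTCA (1.59%) were in none of the 5. The base composition also set the first Runx2 start apart, with 45.6% G and C against 57.2% to 70.0% in the other 4 windows. These are matches of letters and were not tested for binding.

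The libraries held 19246641 to 40653404 counts each, of which 46.13% to 83.92% came from mitochondrially encoded genes. A count of 0 therefore allows a level of up to 0.0594 to 0.200 CPM (counts scaled to a common library size, with TMM-adjusted library totals), and intervals and floors given here cover counting error only. Genes that mark other cell types varied widely. The summed level of 13 skeletal muscle genes ran from 1650 to 69300 CPM over all libraries, and that of 16 chondrocyte genes from 11.4 to 7380 CPM. The 23 osteoblast matrix and signalling genes summed to at most 11100 CPM in 1 library, and each was detected in every group. In bulk tissue, fewer cells of a type and less RNA per cell cannot be told apart.

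Measured per length of transcript, Atf4 stood far above the others, with a mean of 97.9 FPKM (fragments per kilobase of transcript, scaled to depth) over the 23 libraries and a range of 49.8 to 138. Runx2 (mean 2.32 FPKM, range 0.187 to 8.2), Dlx5 (2.29, 0.0457 to 5.75), Sp7 (2, 0.106 to 8.41) and Twist1 (1.44, 0 to 4.19) formed a middle group whose ranges overlapped almost completely. Dlx3 (mean 0.354 FPKM) and Msx2 (mean 0.151 FPKM) were the lowest. The spread between libraries of 1 group also differed: edgeR's biological coefficient of variation was 29.1% for Atf4, 70% for Runx2, 76.7% for Dlx5, 77.9% for Sp7, 89.5% for Twist1, 101% for Dlx3 and 167% for Msx2, beside 52.4% for the median gene. Atf4 was thus the only member measured more tightly than the median gene.

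**Figure D1:**
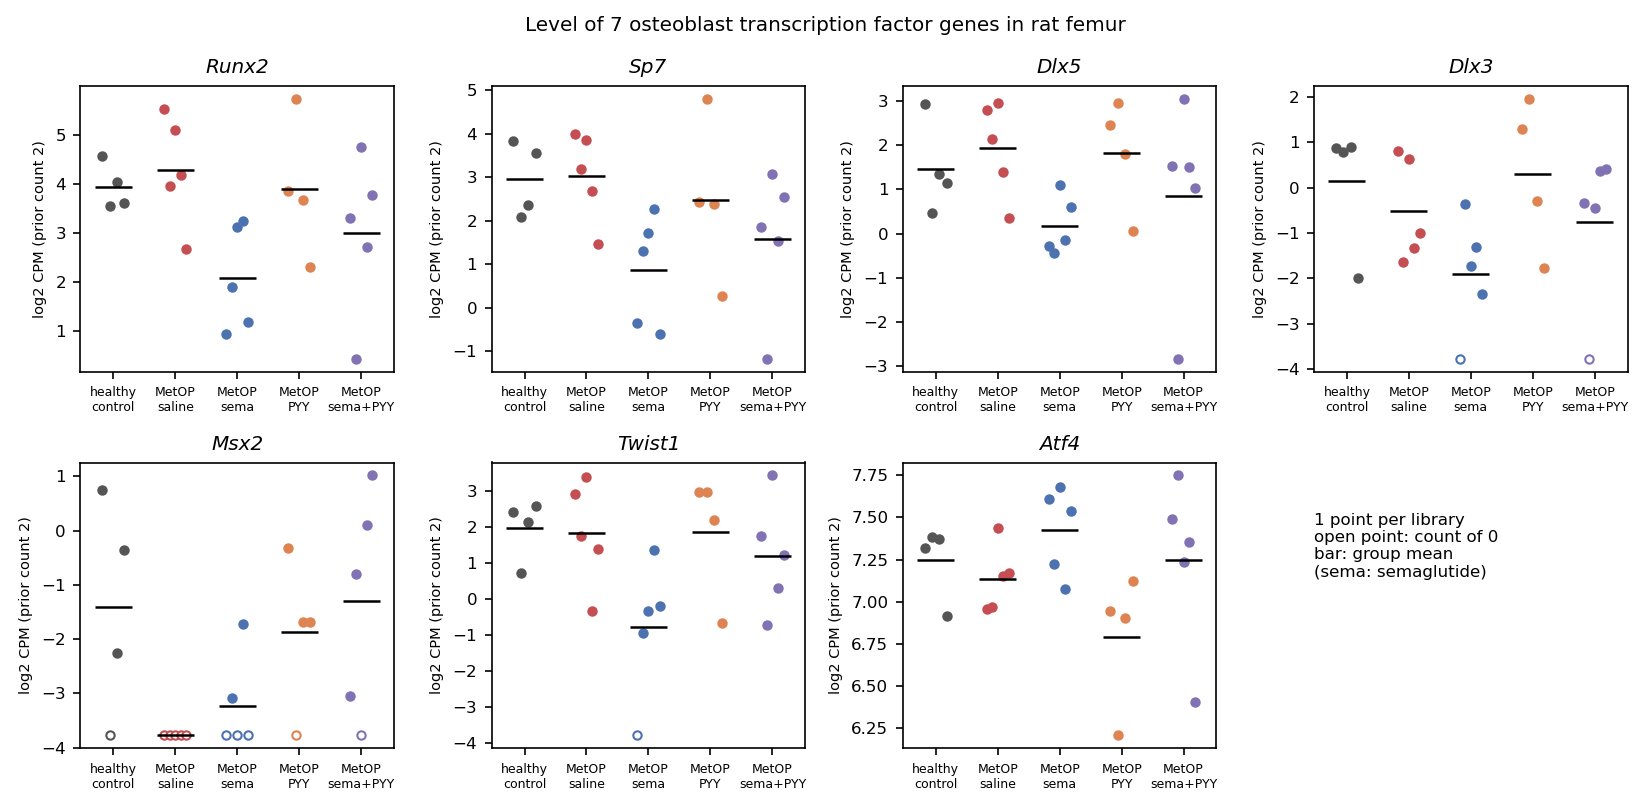
Level of each gene in each library on the log2 CPM scale (prior count 2) by group; filled points are libraries with counts, open points libraries with a count of 0, and bars group means. For Runx2, Sp7, Dlx5, Twist1 and Dlx3 the semaglutide group has the lowest mean and overlaps the MetOP saline group, and Msx2 is at 0 in the 5 MetOP saline libraries.

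The lowest group means of Runx2, Sp7, Dlx5, Twist1 and Dlx3 were found in the group given semaglutide, at mean CPM values of 5.13, 2.33, 1.15, 0.888 and 0.278 against 23.9, 9.64, 4.53, 4.83 and 0.827 in MetOP saline. No difference of any of the 7 genes passed the test, and libraries of 1 group often differed as much as the groups did. Atf4 varied little and Msx2 was scarce, with not a single count in MetOP saline.

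Runx2 in MetOP saline was measured at 45.8, 15.3, 34.2, 18.1 and 6.30 CPM in libraries A224, A226, A229, A232 and A265. With semaglutide it was at 1.84, 3.64, 8.60, 9.39 and 2.19 CPM in libraries A238, A240, A241, A242 and A243. In 3 of the 5 semaglutide libraries Runx2 was thus below every saline library, and the other two lay between the lowest and the next saline library. The healthy controls A387, A389, A390 and A392 held 23.5, 11.6, 16.4 and 12.1 CPM, within the range of MetOP saline. All 5 semaglutide libraries were below all 4 healthy controls for Runx2, as for 2.37% of all genes, and no other member showed this. PYY libraries A215, A216, A219 and A220 were at 14.3, 52.9, 12.6 and 4.85 CPM, and libraries A248, A251, A253, A318 and A320, given both agents, at 9.75, 1.28, 26.6, 6.51 and 13.6 CPM. Library A216 was the highest of all 23 and library A251 the lowest.

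Semaglutide against MetOP saline gave Runx2 means of 5.13 ± 3.60 CPM (SD, n = 5) and 23.9 ± 15.8 CPM (SD, n = 5), a log2 fold change of -2.22 ± 0.69 (SE) with a 95% interval of -3.65 to -0.80. The unadjusted p was 0.00377 and the adjusted p 0.389 (edgeR quasi-likelihood test, Benjamini-Hochberg over all 15271 genes), so the difference did not pass. The adjusted p depended on the method and was lowest with DESeq2, at 0.0741, which did not pass either. With the mean level of the chondrocyte genes as a covariate the log2 fold change was -1.09 (edgeR, adjusted p = 0.997). The chondrocyte genes summed to 47.5 to 5830 CPM in MetOP saline and 11.4 to 92.2 CPM with semaglutide. Matn1 and Epyc were at 0 in all 5 semaglutide libraries, but they had counts in only 2 and 9 of all 23 libraries. All 15 chondrocyte genes tested were on the lower side with semaglutide, each with an unadjusted p under 0.05 (edgeR) and none passing. On that side 7.24% of all genes had such a p. The list was chosen with earlier results of these data known, so its count carries no test of its own. The part of the chondrocyte genes in the Runx2 value was not tested beyond that covariate.

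Sp7 followed Runx2 library by library. It was at 15.8, 9.05, 14.4, 6.37 and 2.66 CPM in the saline libraries A224, A226, A229, A232 and A265. In the semaglutide libraries, in the order A238, A240, A241, A242 and A243, it was at 0.705, 2.39, 3.24, 4.71 and 0.586 CPM. Again 3 of 5 semaglutide libraries were below every saline library, and the groups overlapped. The log2 fold change was -2.05 ± 0.77 (SE), with an adjusted p of 0.393 (edgeR), and it was -0.72 (adjusted p = 0.997) with the chondrocyte level as a covariate. Healthy controls held 14.1, 4.19, 5.02 and 11.7 CPM of Sp7. The PYY libraries held 5.29, 27.7, 5.14 and 1.13 CPM and those given both agents 3.54, 0.369, 8.40, 2.84 and 5.78 CPM, with library A216 again the highest and library A251 again the lowest of all. Per length, the ratio of Sp7 to Runx2 had a median of 0.748 over the 23 libraries and ran from 0.454 in PYY library A220 to 1.88 in healthy library A392.

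Dlx5, a homeodomain activator of the lineage, was at 6.88, 4.34, 7.68, 2.53 and 1.21 CPM in MetOP saline and at 0.744, 0.665, 2.06, 0.824 and 1.45 CPM with semaglutide. Of the semaglutide libraries, 3 were below every saline library, but they were not the same 3 as for Runx2: library A242, the highest for Runx2, was among the 3 for Dlx5. The log2 fold change was -1.98 ± 0.75 (SE; edgeR, adjusted p = 0.393), and it was -0.88 (adjusted p = 0.997) with the chondrocyte level as a covariate. Healthy controls were at 7.51, 1.31, 2.46 and 2.13 CPM, PYY libraries at 5.41, 7.70, 3.43 and 0.970 CPM and libraries with both agents at 2.82, 0.0672, 8.17, 2.75 and 1.98 CPM. The lowest of these values, in library A251, rests on 2 counts. Dlx3, a related protein with a far lower level, was at 1.67, 0.246, 1.47, 0.326 and 0.424 CPM in MetOP saline and at 0, 0.709, 0.228, 0.329 and 0.123 CPM with semaglutide. Its log2 fold change was -1.57 ± 1.08 (SE; edgeR, adjusted p = 0.574), and -0.998 with that covariate. In the healthy controls Dlx3 was at 1.75, 1.65, 1.78 and 0.178 CPM, with PYY at 2.39, 3.8, 0.739 and 0.218 CPM, and with both agents at 0.717, 0, 0.658, 1.21 and 1.26 CPM. The fit of Dlx3 thus rests on 0 to 109 counts a library, and it gave the widest interval of the 5 genes in each comparison with MetOP saline.

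The RNA level of Twist1, the member that restrains Runx2, did not run opposite to that of Runx2. Protein and the restraint itself were not measured. Twist1 was at 7.40, 3.28, 10.2, 0.724 and 2.54 CPM in MetOP saline and at 0, 0.443, 0.723, 2.47 and 0.802 CPM with semaglutide. Of the semaglutide libraries, 3 of 5 were below every saline library, but library A241, at 0.723 CPM, was almost level with saline library A232, at 0.724 CPM. The log2 fold change was -2.43 ± 0.91 (SE; edgeR, adjusted p = 0.393), and it was -0.999 with the chondrocyte level as a covariate. Healthy controls held 5.24, 1.57, 4.34 and 5.86 CPM, PYY libraries 7.71, 7.74, 4.49 and 0.555 CPM and libraries given both agents 3.30, 0.537, 10.6, 1.17 and 2.26 CPM. All groups overlapped.

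Atf4 had at least 2037 counts in every library and the narrowest range. MetOP saline libraries were at 124, 125, 173, 142 and 144 CPM and semaglutide libraries at 195, 149, 205, 135 and 186 CPM. Here 3 of 5 semaglutide libraries were above every saline library, the opposite side from Runx2, with a log2 fold change of 0.30 ± 0.25 (SE; edgeR, adjusted p = 0.66). Healthy controls held 160, 167, 166 and 121 CPM, PYY libraries 123, 73.8, 119 and 139 CPM and libraries A248, A253, A318 and A320, given both agents, 179, 151, 163 and 84.5 CPM. The remaining library of that group, A251, was the highest of all 23, at 7.75 on the log2 CPM scale against 7.49 in A248. Library A216, the highest for Runx2 and Sp7, was the lowest for Atf4, and A251 was the lowest for Runx2 and Sp7.

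Msx2 was detected in 12 of the 23 libraries. The 5 MetOP saline libraries had none, so that over the group a floor of 3 counts allows up to 0.0245 CPM. In the healthy controls it had 45, 0, 3 and 12 counts and with PYY 25, 0, 8 and 12 counts. Libraries given both agents had 1, 15, 0, 24 and 62 counts, and those given semaglutide 0, 1, 0, 7 and 0 counts. Every other group therefore held libraries with counts and at least 1 library with none, so that its range overlapped MetOP saline. The levels pooled over each group, with exact 95% Poisson intervals, were 0.663 CPM (0.506 to 0.853) in the healthy controls, 0.305 CPM (0.223 to 0.409) with PYY, 0.771 CPM (0.629 to 0.936) with both agents and 0.0583 CPM (0.0252 to 0.115) with semaglutide, beside 0 CPM (0 to 0.0301) in MetOP saline. The interval of semaglutide overlapped that of MetOP saline, and 7 of its 8 counts lay in library A242, so no fold is given for it. The pooled level was 27.1 times that floor in the healthy controls, 12.5 times with PYY and 31.5 times with both agents. These ratios are not lower bounds, since they leave out the counting error of the pooled levels and the spread between libraries. With edgeR, the adjusted p for the difference from MetOP saline was 0.631 for healthy controls, 0.853 for PYY, 1 for both agents and 0.449 for semaglutide, none of which passed. In library A320 alone lay 62 of the 102 counts of its group, and in library A387 lay 45 of the 60 counts of the healthy controls.

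Read over all 7 genes, none was called at an adjusted p under 0.05 for semaglutide against MetOP saline, where 0% of the 15271 tested genes were called (edgeR). An unadjusted p under 0.05 on the lower side was reached by 4 of 7 members, namely Runx2, Sp7, Dlx5 and Twist1, and by 7.24% of all genes. A log2 fold change of -1 or lower was reached by 5 of 7 members and by 13.8% of all genes. The ranges of the 2 groups overlapped for all 7 members, and 4.47% of all genes had ranges that did not. The median log2 fold change was -1.98 over the members, beside -0.04 over all genes. Msx2 counts as higher there by its fitted value only, which rests on 8 counts. Since these factors were put together as a functional group with results of these data known, the counts describe the group and carry no test of their own.

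**Figure D2:**
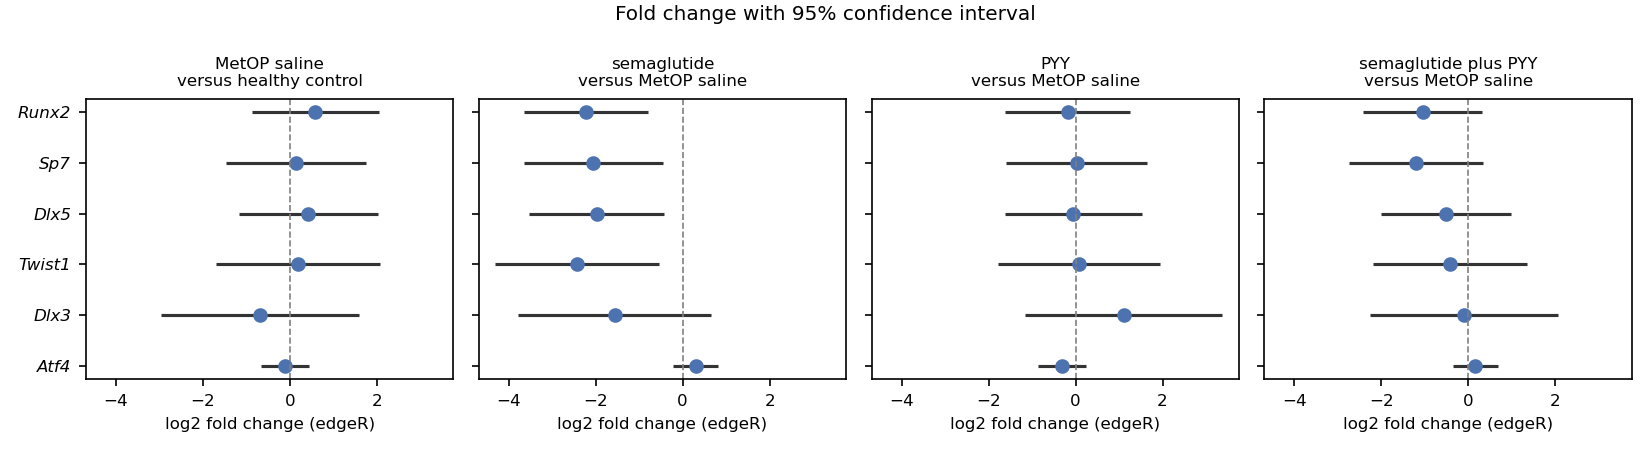
Log2 fold change (edgeR, points) with 95% confidence interval (lines) of 6 genes in 4 comparisons; Msx2 is left out because MetOP saline had no count. With semaglutide the intervals of Runx2, Sp7, Dlx5 and Twist1 lie below 0 before adjustment, and in the other 3 comparisons all intervals include 0.

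The disease model itself did not separate the members. Comparing MetOP saline with healthy controls, 0 of 7 members and 0% of all genes were called (edgeR), and an unadjusted p under 0.05 was reached by 1 member, Msx2, and by 6.55% of all genes. Runx2 had means of 23.9 ± 15.8 CPM (SD, n = 5) and 15.9 ± 5.50 CPM (SD, n = 4), a log2 fold change of 0.59 ± 0.70 (SE) with an interval of -0.87 to 2.05. The values for Sp7 (0.14 ± 0.78), Dlx5 (0.43 ± 0.77), Twist1 (0.18 ± 0.91), Dlx3 (-0.69 ± 1.10) and Atf4 (-0.11 ± 0.27) were each smaller than their SE. The Runx2, Sp7, Dlx5 and Twist1 values were below 0 once the chondrocyte level was a covariate, with unadjusted p-values of 0.241 to 0.553 (edgeR). The chondrocyte genes themselves were higher in MetOP saline for 14 of 15 (median log2 fold change 1.22), with none passing. The intervals leave room for a change of Runx2 of either sign, while that of Atf4, from -0.66 to 0.44, bounds its difference more closely.

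PYY alone gave means of Runx2, Sp7, Dlx5 and Twist1 close to those of MetOP saline, and again 0 of 7 members and 0% of all genes were called (edgeR). An unadjusted p under 0.05 was reached by 1 member, Msx2, and by 4.85% of all genes. For Runx2 the means were 21.1 ± 21.6 CPM (SD, n = 4) and 23.9 ± 15.8 CPM (SD, n = 5), with a log2 fold change of -0.18 ± 0.70 (SE). That mean rests on library A216: without it, the log2 fold change of Runx2 was -1.18 and that of Sp7 went from 0.02 to -1.33, both at an adjusted p of 1. Library A216 also had the highest summed chondrocyte level of all, 7380 CPM, and 3880 CPM of muscle genes, the lowest of its group. Dlx3 was at 1.10 ± 1.10 (SE), Twist1 at 0.08 ± 0.90, Dlx5 at -0.05 ± 0.76 and Atf4 at -0.32 ± 0.27 on the log2 scale. For Atf4, the level in 3 of 4 PYY libraries was lower than in any saline library.

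Semaglutide with PYY placed the mean of each member but Msx2 between those of the semaglutide and the saline groups. Against MetOP saline, 0 of 7 members and 0% of all genes were called (edgeR), and an unadjusted p under 0.05 was reached by 1 member, Msx2, and by 3.06% of all genes. Runx2 averaged 11.6 ± 9.56 CPM (SD, n = 5), a log2 fold change of -1.05 ± 0.66 (SE), and Sp7 averaged 4.18 ± 3.05 CPM (SD, n = 5), a log2 fold change of -1.21 ± 0.75 (SE). Dlx5 (-0.52 ± 0.72), Twist1 (-0.43 ± 0.86), Dlx3 (-0.11 ± 1.05) and Atf4 (0.16 ± 0.25) differed by less than their SE. These comparisons with MetOP saline share the same 5 saline libraries, so their values are not independent of each other.

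Against semaglutide alone, the group given both agents had Runx2 at a log2 fold change of 1.17 ± 0.67 (SE), Dlx5 at 1.45 ± 0.74, Twist1 at 1.99 ± 0.90, Dlx3 at 1.46 ± 1.08 and Sp7 at 0.85 ± 0.75. None passed (0 of 7 members, 0% of all genes). Twist1 alone had an unadjusted p under 0.05, as had 5.65% of all genes, and its adjusted p was 0.816 (edgeR). For Runx2, 3 of 5 libraries given both agents were above every semaglutide library, and 1, library A251, was below all of them. Marker genes of other cells differed too, not all on the same side. The chondrocyte genes were higher for 15 of 15 (median log2 fold change 2.80), summing to 15.1 to 568 CPM with both agents and 11.4 to 92.2 CPM with semaglutide. The fibroblast genes were higher for 12 of 12 (median 0.81), the erythroid genes for 10 of 10 (median 1.22) and the neutrophil genes for 9 of 9 (median 0.92). Osteoclast genes were higher for 7 of 9 (median 0.26), B cell genes for 5 of 7 (median 0.35) and endothelial genes for 4 of 7 (median 0.04). Muscle genes were lower for 13 of 13 (median -0.52) and adipocyte genes for 5 of 7 (median -0.24). With the chondrocyte level as a covariate the values were 0.75 for Runx2, 0.97 for Dlx5, 1.23 for Twist1, 1.416 for Dlx3 and 0.46 for Sp7, and the part of the other markers was not tested. Against PYY alone the values were -0.87 ± 0.69 for Runx2 and -1.23 ± 0.78 for Sp7 (0 of 7 members and 0% of all genes called by edgeR, 0 members and 6.24% of all genes at an unadjusted p under 0.05), and without PYY library A216 they were 0.13 and 0.12. The interaction, which asks whether the 2 agents together differ from the sum of their separate effects on the log2 scale, was 1.35 ± 0.97 (SE) for Runx2, 1.51 ± 1.07 for Dlx5, 1.91 ± 1.27 for Twist1 and 0.82 ± 1.08 for Sp7. It was called for 0 of 7 members and 0% of all genes, with an adjusted p of 0.999 for each of these genes (edgeR), and 0 members and 4.58% of all genes had an unadjusted p under 0.05.

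Semaglutide against PYY gave lower adjusted p-values than any other comparison for each member but Msx2. The log2 fold changes were -2.04 ± 0.71 (SE) for Runx2, -2.07 ± 0.80 for Sp7, -1.92 ± 0.78 for Dlx5, -2.51 ± 0.94 for Twist1, -2.67 ± 1.15 for Dlx3 and 0.61 ± 0.27 for Atf4. Adjusted p-values ran from 0.183 for Runx2 to 0.259 for Atf4 over these 6 genes (edgeR), so 0 of 7 members were called. In the same comparison 15 of 15 chondrocyte genes were lower (median log2 fold change -5.75), summing to 11.4 to 92.2 CPM with semaglutide and 23.7 to 7380 CPM with PYY, as were 12 of 12 fibroblast genes (median -2.70) and 7 of 7 endothelial genes (median -0.91), and 13 of 13 muscle genes were higher (median 1.45). With the chondrocyte level as a covariate the log2 fold changes were -1.004 for Runx2, -0.71 for Sp7, -1.18 for Dlx5, -1.65 for Twist1, -2.23 for Dlx3 and 0.52 for Atf4. The muscle level as a covariate gave -1.19 for Runx2, -1.001 for Sp7, -1.654 for Dlx5, -2.226 for Twist1, -2.085 for Dlx3 and 0.298 for Atf4. The part of the fibroblast and endothelial genes was not tested. Across all genes 0.00655% were called, which is 1 gene, Ddr2, a collagen receptor (log2 fold change -2.43, adjusted p = 0.0014 with edgeR), named here after its value was seen. An unadjusted p under 0.05 was reached by 6 of 7 members and by 16.9% of all genes. A single PYY library moved these values in either direction. Without library A216, Runx2 was at -1.04 (adjusted p = 0.692) and Sp7 at -0.73 (adjusted p = 0.837). Without library A220, 1021 genes were called but still 0 of 7 members, with adjusted p-values of 0.0516 for Runx2, 0.0593 for Twist1, 0.06 for Sp7 and 0.0764 for Dlx5 (edgeR). In a test of any difference among the 5 groups, 0 of 7 members were called, again beside 0.00655% of all genes, which was Ddr2 alone. Runx2 (adjusted p = 0.508) and Msx2 (adjusted p = 0.45) were the 2 members with an unadjusted p under 0.05 in that edgeR test, as were 9.38% of all genes. DESeq2 and limma likewise called 0 of 7 members in each of these comparisons.

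Across libraries, the levels of 5 of the members varied together, within groups as well as between them. The 10 pairs among Runx2, Sp7, Dlx5, Twist1 and Dlx3 had Pearson correlations of log2 CPM from 0.692 to 0.959 and Spearman correlations from 0.586 to 0.949 over 23 libraries, and all 10 had an adjusted permutation p at or below 0.000865 for Pearson's r (Benjamini-Hochberg over 49 relations). With group means removed, the range was 0.584 to 0.947, so the relation was present among libraries of the same group. Leaving out the 2 libraries farthest from the median of the first gene gave 0.524 to 0.935. Runx2 and Sp7 were the closest pair, with r = 0.959 and a Spearman rho of 0.949 (permutation p = 1e-05 for both, the smallest that 100000 permutations can give). No other gene tested came closer to either: the next was Pth1r, the receptor for parathyroid hormone, at r = 0.953 with Runx2 and 0.95 with Sp7. All libraries differ in depth and tissue makeup, which these correlations share. The members were chosen with earlier results of these data known, so the permutation p-values describe the group and give no independent support.

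Atf4 and Msx2 stood outside this block. Atf4 ran opposite to Sp7 (r = -0.607, rho = -0.58, permutation p = 0.00217 and 0.00435, adjusted p = 0.00425 and 0.00853) and Runx2 (r = -0.563, rho = -0.479, permutation p = 0.00506 and 0.0214, adjusted p = 0.00918 and 0.0328). Without the 2 libraries farthest from the median of the osteoblast factor, r was -0.502 and -0.422. With group means removed, r was -0.632 for Sp7 (adjusted permutation p = 0.032) and -0.513 for Runx2 (adjusted permutation p = 0.0983). The level of Atf4 followed that of the skeletal muscle genes instead, with r = 0.799 and rho = 0.743 (permutation p = 1e-05 and 9e-05, adjusted p = 5.44e-05 and 0.000294) over the 23 libraries and r = 0.788 within groups. Without libraries A216 and A320, those farthest from the median of Atf4, r was 0.568. Msx2 had correlations between -0.211 and 0.128 with the other members, and none of the 6 reached an adjusted permutation p under 0.05. With 11 libraries at 0 counts, such a correlation says little about Msx2.

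**Figure D3:**
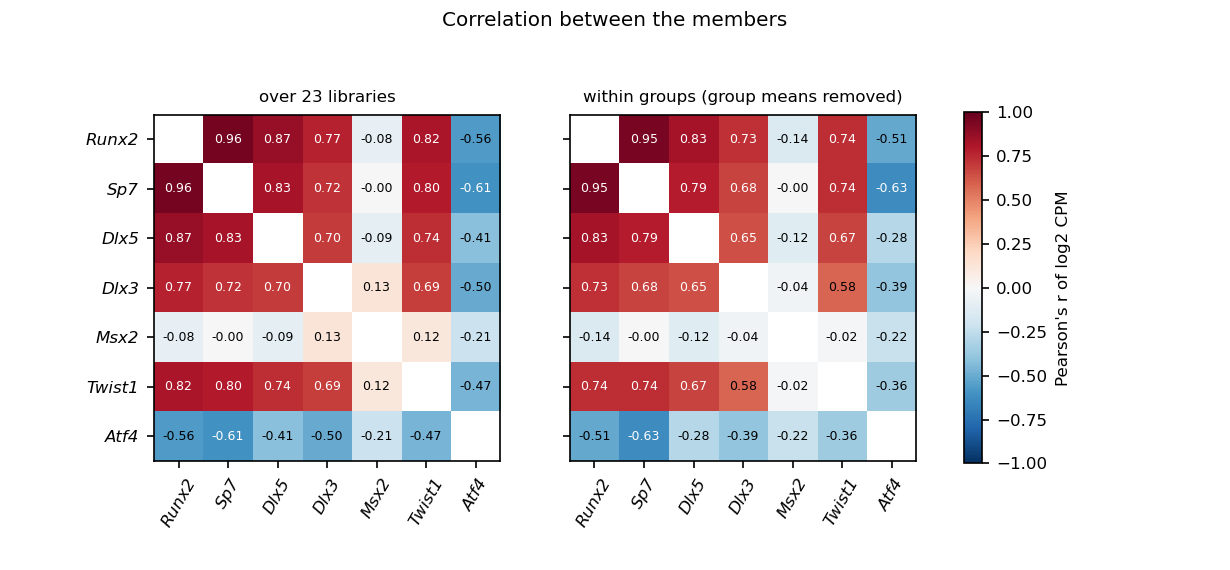
Pearson correlation of log2 CPM for each pair of the 7 genes, over 23 libraries (left) and with group means removed (right). Runx2, Sp7, Dlx5, Dlx3 and Twist1 form a block of 10 positive pairs in both panels, Atf4 is on the negative side of them and Msx2 lies near 0.

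By the rule of highest correlation over the 23 libraries, the 3 genes most like Runx2 and also most like Sp7 were Pth1r, Tns3, a focal adhesion protein, and Ckb, brain-type creatine kinase (r = 0.926 to 0.953). Dlx5 was closest to Serp1 (r = 0.869), Ppic (0.856) and Rab31 (0.852). Serp1 and Ppic act in the endoplasmic reticulum on newly made proteins. Twist1 was closest to Marcks (r = 0.896), Cgref1 (0.871) and Prelp (0.864), the last of which is a matrix proteoglycan. Dlx3 was closest to Pygb, Dact3 and Arf4 (r = 0.824 to 0.844), and Msx2 to Tmem205, Sparcl1 and Eln (r = 0.695 to 0.718), of which Eln encodes elastin. Atf4 was closest to Ppp1r3c (r = 0.928), a glycogen-targeting subunit of protein phosphatase, Kpna3 (0.917) and Mlf2 (0.912).

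Osteoblast matrix and signalling genes varied with Runx2, Sp7, Dlx5, Twist1 and Dlx3. The list of these genes shares Col11a2 with that of the chondrocyte genes, and it holds Pth1r, the gene outside the members closest to Runx2 and Sp7. Members and lists were chosen with earlier results of these data known. The permutation p-values below therefore describe these lists and give no independent support. The mean log2 CPM of 23 osteoblast matrix and signalling genes correlated with Sp7 at r = 0.95 (rho = 0.967), with Runx2 at r = 0.931 (rho = 0.921), with Dlx5 at r = 0.845 (rho = 0.862), with Twist1 at r = 0.814 (rho = 0.852) and with Dlx3 at r = 0.681 (rho = 0.616). For Sp7, Runx2, Dlx5 and Twist1 the permutation p was at most 3e-05 for either measure, and for Dlx3 it was 0.00036 for r and 0.00258 for rho. Within groups r was 0.93 for Sp7 and 0.896 for Runx2, and without the 2 libraries farthest from each factor's median r was 0.948 for Sp7, 0.914 for Runx2, 0.829 for Dlx5, 0.824 for Twist1 and 0.545 for Dlx3. Atf4 was opposite to this level (r = -0.587, rho = -0.543, permutation p = 0.00301 and 0.00814), and Msx2 had r = 0.002 (rho = 0.005, permutation p = 0.993 and 0.983). The same factors also followed other tissue markers: r with the chondrocyte level was 0.679 for Sp7, 0.632 for Runx2 and 0.252 for Dlx3 (rho = 0.634, 0.553 and 0.143; permutation p of r = 0.00044, 0.00124 and 0.245). With the level of 12 fibroblast genes r was 0.722 for Twist1, 0.721 for Dlx5 and 0.658 for Runx2 (rho = 0.852, 0.868 and 0.805; permutation p of r = 0.00019, 0.00023 and 0.00059). All of these but that of Dlx3 with the chondrocyte level had an adjusted permutation p under 0.05. The part of tissue makeup in the shared variation was not tested.

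**Figure D4:**
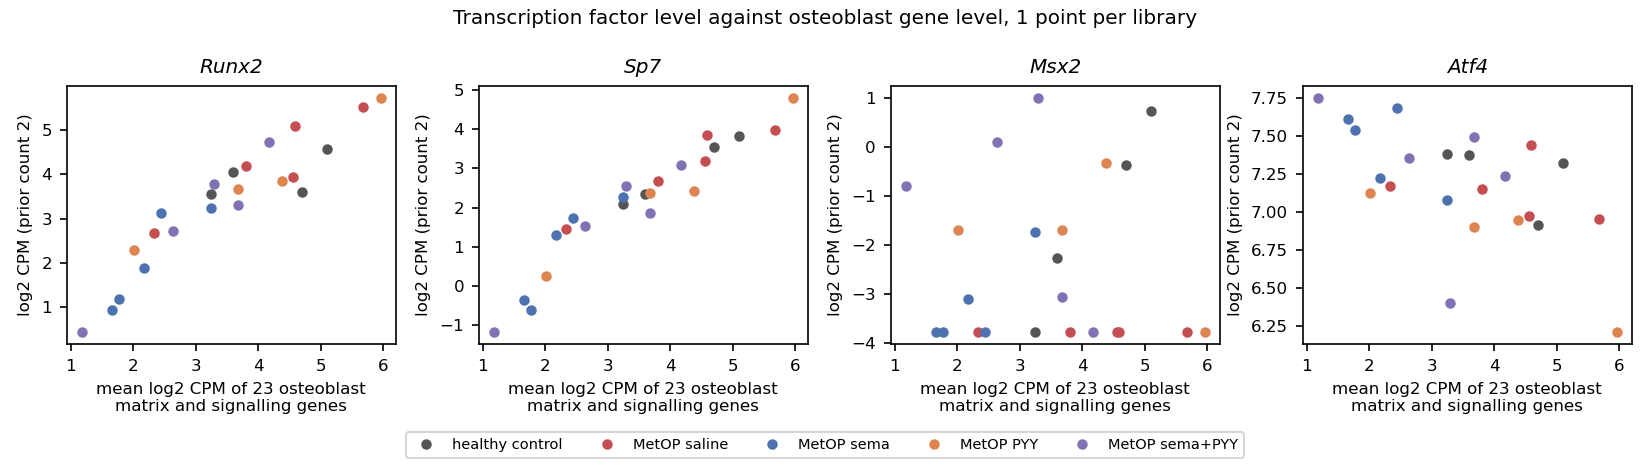
Level of Runx2, Sp7, Msx2 and Atf4 (log2 CPM, vertical) against the mean log2 CPM of 23 osteoblast matrix and signalling genes (horizontal), 1 point per library coloured by group. Runx2 (r = 0.931) and Sp7 (r = 0.95) rise with the osteoblast genes through all groups, Atf4 runs opposite (r = -0.587) and Msx2 shows no relation (r = 0.002).

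Of those 23 genes, 21 were on the lower side and 2 on the higher side with semaglutide against MetOP saline, with a median log2 fold change of -2.36, and none passed the test. An unadjusted p under 0.05 was reached by 17 of them, all lower, beside 7.24% of all genes. Col1a1, the chain of type I collagen that makes up most of the bone matrix, averaged 141 ± 88.2 CPM (SD, n = 5) with semaglutide and 1100 ± 1070 CPM (SD, n = 5) with saline, a log2 fold change of -2.97 ± 0.87 (SE; edgeR, adjusted p = 0.371). Ibsp, bone sialoprotein, was at -3.55 ± 0.85, and Mmp13, a collagenase of late osteoblasts and hypertrophic chondrocytes, at -3.53 ± 0.92. Alpl, alkaline phosphatase, was at -2.42 ± 0.70, and Bglap, osteocalcin, at -1.92 ± 0.65, with adjusted p-values of 0.371 and 0.389 (edgeR). For Col1a1, Mmp13, Alpl and Bglap, 4 of 5 semaglutide libraries were below every saline library. With both agents against saline, 20 of the 23 genes were lower (median -1.25), beside 47.5% of all genes. Fewer were lower with PYY against saline, 7 (median 0.09, beside 50.5%), and in MetOP saline against healthy controls, 8 (median 0.17, beside 47.4%). None of them passed. With both agents 9 were lower at an unadjusted p under 0.05 (edgeR), beside 1.6% of all genes, and 0 were in either of the other comparisons.

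Partners and relatives of the members lay on both sides. In a list of 45 co-factors and related transcription factors, 40 could be tested, of which 26 were lower and 14 higher with semaglutide against saline (median log2 fold change -0.35) and 0 passed (edgeR), with 5 lower and 1 higher at an unadjusted p under 0.05, beside 7.24% and 4.18% of all genes. Cbfb, the subunit that stabilises Runx2 on DNA, was at 43.4 ± 25.1 CPM (SD, n = 5) with semaglutide and 39.6 ± 9.14 CPM (SD, n = 5) with saline, a log2 fold change of 0.13 ± 0.31 (SE). Dlx6, which neighbours Dlx5 in the genome, was at -0.96 ± 0.49, with 4 of 5 semaglutide libraries below every saline library (edgeR, adjusted p = 0.45). Msx1, the relative of Msx2, was detected in all 5 saline libraries, at 0.668 to 2.30 CPM, unlike Msx2. Its log2 fold change with semaglutide was -0.60 ± 0.98 and that of MetOP saline against healthy controls 1.63 ± 1.09. Twist2, the relative of Twist1, was too low to be tested, at 0 to 0.403 CPM.

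Genes that ATF4 switches on in the amino acid and stress response did not share 1 direction. Of 25 tested genes of a list of 26, 12 were higher and 13 lower with semaglutide against saline (median -0.01), and 0 passed (edgeR), with 6 lower and 2 higher at an unadjusted p under 0.05, beside 7.24% and 4.18% of all genes. Asns, asparagine synthetase, averaged 5.16 ± 4.19 CPM (SD, n = 5) with semaglutide and 21.1 ± 15.6 CPM (SD, n = 5) with saline, a log2 fold change of -2.03 ± 0.69 (SE; edgeR, adjusted p = 0.389), the opposite side from Atf4 itself. Chac1, which degrades glutathione, was at -0.01 ± 0.98, and Trib3, a pseudokinase that restrains ATF4, at 1.51 ± 1.67, with counts in 1 of 5 saline libraries.

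Among markers of other cells, the 13 skeletal muscle genes tested were all on the higher side with semaglutide against saline (median log2 fold change 0.85), summing to 15900 to 65900 CPM against 18600 to 38000 CPM. The fibroblast genes were lower for 10 of 12 (median -1.37), the osteoclast genes for 9 of 9 (median -1.43), the erythroid genes for 10 of 10 (median -1.58) and the adipocyte genes for 7 of 7 (median -0.84). The summed adipocyte level did not show this. Its median was 90.6 CPM (50.2 to 134) with semaglutide and 81.9 CPM (75.8 to 217) with saline. Neutrophil genes were lower for 7 of 9 (median -0.64), endothelial genes for 4 of 7 (median -0.06) and B cell genes for 3 of 7 (median 0.03). None of these genes passed the test. These are differences between groups and did not hold in every library: semaglutide library A242 had 15900 CPM of muscle genes, less than any saline library, and library A241 had 115 CPM of osteoclast genes, within the saline range of 53.2 to 716 CPM. With the muscle level as a covariate, Runx2 was at -2.09 (adjusted p = 0.398) against saline and at -1.19 (adjusted p = 0.734) against PYY (edgeR).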

How the data were processed

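Poly(A) RNA of 23 femur libraries was sequenced, all in 1 labelled batch. The authors deposited a table of raw counts per gene and a table of FPKM values; the submitters' processing notes name build mRatBN7.2 and DESeq2 1.42.0, and no aligner or counter is named in the sources used here. The labels' protocols name stranded and unstranded preparation without saying which was used. Every FPKM column was scaled to the same depth per DESeq2 size factor, so FPKM was used to compare levels between genes, and the counts for tests.

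Libraries were grouped by treatment and title. Genes were filtered with filterByExpr (minimum count 10) and tested with edgeR 4.0.16 (R 4.3.3; TMM, robust quasi-likelihood, 1 mean per group over all 23 libraries, 18 residual degrees of freedom, adjusted p under 0.05), after a check on simulated counts. Correlations used log2 CPM (prior count 2) and 100000 two-sided permutations. No 2 libraries of a group agreed within sampling noise. Alternatives were DESeq2 1.42.0, RLE factors, no filter, limma 3.58.1 (voom, and log2(FPKM + 0.1) or log2(FPKM + 1)), only the groups compared, no mitochondrial genes, muscle or chondrocyte level as covariate, and leaving out each library. Named genes were the members, the 3 tested genes most correlated with each, fixed examples of each list and list genes that passed. List symbols without a match included Myh1, Mylpf and Cldn5, and 1 of the fixed examples is not reported here. The members and lists were chosen with earlier results of these data known.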

Additional observations from a re-analysis of the deposited data

Results flagged for a closer look

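Over 34 sets of 1 gene in 1 group, 5 held a library far from the others of its group. The rule was Dixon's test on CPM, which compares the gap to the nearest library with the range. Chance gives about 1 in 20 only where values are normally distributed, which was not tested here, so no excess over chance is read from the 5. Sp7 was at 27.7 CPM in PYY library A216, where the next library had 5.29 CPM. Twist1 was at 10.6 CPM in library A253, given both agents, with the next at 3.30 CPM. Msx2 was at 0.231 CPM, from 7 counts, in semaglutide library A242, with the next at 0.0443 CPM. Healthy library A392 was low for 2 genes, with Dlx3 at 0.178 CPM (3 counts) against 1.65 CPM in the next and Atf4 at 121 CPM against 160 CPM, and it also had the highest ratio of Sp7 to Runx2.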

How the results depend on the processing

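None of the 48 fold changes of Runx2, Sp7, Dlx5, Dlx3, Twist1 and Atf4 passed the test under any of 989 alternatives. The fitted fold changes of Msx2 are left out here. For semaglutide against MetOP saline, the lowest adjusted p was 0.0741 for Runx2, 0.166 for Twist1 and 0.432 for Dlx3, each with DESeq2. For Dlx5, Sp7 and Atf4 it was 0.0914, 0.106 and 0.421, each with edgeR on only the groups compared. In 32 of the 48 the direction never changed, including all values of these 6 genes for semaglutide against MetOP saline and against PYY; 53 alternatives reversed the other 16. With the chondrocyte level as a covariate, the log2 fold changes of MetOP saline against healthy controls were -0.41 for Runx2, -0.84 for Sp7, -0.49 for Dlx5, -0.81 for Twist1 and 0.0065 for Atf4, those of PYY against saline -0.017 for Sp7 and 0.30 for Dlx5, and those of both agents against saline 0.42 for Dlx3, 0.087 for Dlx5 and 0.23 for Twist1. With the muscle level as a covariate, Sp7 and Twist1 were at -0.12 and -0.042 in MetOP saline against healthy controls and at -0.94 and -0.30 with PYY against saline. Voom gave Twist1 -0.15 against healthy controls, and Sp7 -0.93 and Twist1 -0.27 with PYY. On log2(FPKM + 0.1), Twist1 was at -0.087 against healthy controls and Sp7 at -0.48 with PYY; on log2(FPKM + 1), Sp7 was at -0.23 with PYY and the interaction of Dlx3 at -0.091. The cause was not tested.

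Leaving out 1 library at a time gave, for MetOP saline against healthy controls, -0.11 to 0.48 for Sp7 and -0.28 to 0.46 for Twist1. For PYY against saline it gave -1.18 to 0.19 for Runx2, -1.33 to 0.40 for Sp7, -0.47 to 0.28 for Dlx5 and -0.20 to 0.55 for Twist1. For both agents it gave -0.36 to 0.33 for Dlx3 and -1.41 to 0.031 for Twist1 against saline, -1.44 to 0.13 for Runx2 and -1.65 to 0.12 for Sp7 against PYY, -0.24 to 0.027 for Atf4 against semaglutide, and -0.079 to 1.04 for the interaction of Dlx3.

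Over all genes DESeq2 called 51 in MetOP saline against healthy controls, 97 for semaglutide, 5 for PYY and 5 for both agents against saline, 16 for both against semaglutide, 13 for both against PYY, 504 for semaglutide against PYY, 3 for the interaction and 341 among the 5 groups, with no member among them. The test among the 5 groups called 2 with RLE factors and 2 without mitochondrial genes, and both agents against PYY 1 with voom and 1 on log2(FPKM + 0.1). Leaving out 1 library gave 1 to 1021 genes for semaglutide against PYY (1021 without library A220, 3 without library A242), 1 to 39 among the 5 groups (39 without library A220, 2 without A216), 0 to 1 for PYY against saline, 0 to 2 for both against PYY and 0 to 3 for both against semaglutide. The ratios of pooled Msx2 to the MetOP saline floor, in the healthy controls, with PYY and with both agents, were recomputed after seeing the data. They were 12.8 to 31.7 with DESeq2 size factors and 20 to 36.8 with library totals. No paired analysis was possible because library numbers are unique and the labels name no pairing. Depth limits Msx2 and Dlx3 most.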
